A study of Mus musculus with 9 samples.

Results

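De novo fatty acid synthesis is the route by which fat cells build fatty acids from carbohydrate, and 10 genes of it are described here, out of 18193 genes measured. They were taken by name as enzymes and regulators of the pathway, with no threshold on measured values, though with earlier results of these data known: Acly, Acaca, Acacb, Fasn, Scd1, Scd2, Elovl6, Mlxipl, Srebf1 and Thrsp. All 10 were on the array, through 24 of its 45101 probe sets (a probe set is a group of short probes read as 1 value). Of the 24, 20 had a mean signal above a dim level of 29.0, the 40th percentile of all probe sets.

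RNA levels of primary white adipocytes were read on 9 Affymetrix mouse arrays, 1 per sample. The adipocytes are fat cells grown from inguinal stromal-vascular cells, the non-fat cells of the depot, of male C57BL6 mice 30 to 35 days old. On day 8 of differentiation, 3 samples had 100 ng/ml PTH(1-34) for 4 h, 3 had 100 ng/ml PTHrP(1-34) for 4 h, and 3 were controls (vehicle not given in the sources used here). Parathyroid hormone (PTH) and its relative PTHrP act on the same receptor, the Gs-coupled receptor encoded by Pth1r, and (1-34) names the amino-terminal fragments used. All groups, the controls included, had first been made to differentiate with dexamethasone (1 µM), isobutylmethylxanthine (0.5 µM), rosiglitazone (1 µM) and insulin (5 µg/ml), kept after 2 days on the last pair alone, and given plain medium from day 6. Insulin and rosiglitazone are themselves known to promote lipogenesis, and all 9 samples had both before the peptides. The replicates are called biological, with separate mice or cultures not given in the sources used here, so p-values cover the spread between these samples alone, which may be technical.

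In this pathway, ATP-citrate lyase turns citrate into acetyl-CoA, acetyl-CoA carboxylase makes malonyl-CoA, and fatty acid synthase joins these into palmitate, which an elongase and a desaturase then convert into longer and monounsaturated fatty acids. SREBP-1c, which responds to insulin, and ChREBP, which responds to glucose metabolites, switch the enzyme genes on together. Hormones that raise cAMP, such as PTH, are known to act against insulin on this pathway, in part by protein phosphorylation, which arrays do not measure.

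The median signal per array was 48.1 to 52.6, and precision is limited by having 3 arrays per group. Ucp1, a known response of fat cells to cAMP, had 1520.3, 1789 and 2133 with PTH and 1684, 1457 and 1716 with PTHrP, against 24.0, 11.8 and 14.2 in controls, and Pth1r fell with both peptides. The cells carried adipocyte markers: 10 of 10 measured (12 listed), Adipoq, Fabp4 and Cidec first among them, lay above the dim level, and Cidec alone passed the test, upward, with either peptide. Their summed signal was 79175 to 83282 with PTH and 77159 to 81883 with PTHrP, against 77895 to 80847 in controls. Preadipocyte and fibroblast markers (8 measured of 10, all above the dim level, Pdgfra, Pdgfrb and Dlk1 among them) summed to 34438 to 34766, 33171 to 36053 and 35542 to 35849.9 in PTH, PTHrP and control arrays, and Pdgfrb fell with both peptides. Macrophage, endothelial and epithelial markers had 5 of 8, 3 of 6 and 2 of 6 members above the dim level, and 0 of the 20 passed with either peptide alone. With both peptides together, Csf1r, a macrophage receptor, rose (log2 change 0.28, SE 0.06, adjusted p = 0.0320, with all 6 treated arrays above the controls). In that comparison 6 of the 8 macrophage markers had log2 changes below 0, and the median of the 8 was -0.07. Csf1r had the highest mean signal of the 8, 564, and so weighs most in their sum. Below the dim level were Itgam, Mrc1 and C1qa, Pecam1, Emcn and Vwf, and Epcam, Krt18, Krt14 and Cdh1, and no marker averaged 0. Macrophage markers summed to 929 to 1047, 922 to 1005 and 874 to 954, endothelial markers to 228 to 253, 223 to 307 and 275 to 324, and epithelial markers to 112 to 131, 109 to 129 and 109 to 131, in the same order of groups. Sums over markers are descriptions, and their part in the results was not tested.

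Within 4 h of either peptide, the elongase gene Elovl6 and the ChREBP gene Mlxipl fell. Elovl6 was 26.7% lower with PTH and 23.4% lower with PTHrP than the control mean, and Mlxipl 22.4% and 28.4%. Thrsp and Acacb fell with PTHrP. Acly, Acaca and Fasn, whose enzymes lead from citrate to palmitate, and the genes Scd1, Scd2 and Srebf1, did not pass the test with either peptide. These are readings of the brightest probe sets, and another Scd2 probe set fell with PTH. No member rose. In detail, 0 members rose, 2 fell and 8 did not pass with PTH, and 0 rose, 4 fell and 6 did not pass with PTHrP (limma, adjusted p below 0.05 over all 18193 genes). Of all genes, 3.14% fell and 2.96% rose with PTH, and 3.03% fell and 2.54% rose with PTHrP. Among the 9792 genes of mean signal 100 or more, as all 10 members were, 5.11% fell with PTH and 4.84% with PTHrP. The median log2 change of the 10 genes was -0.13 with PTH and -0.15 with PTHrP, beside -0.0027 and -0.005 over all genes. All log2 changes are of signal + 16, for a gene's brightest probe set unless another is named, whereas signals are printed as deposited. The 2 comparisons share their 3 control arrays. In RNA from a whole culture, fewer fat cells and less RNA per fat cell cannot be told apart. Signal at the 3' end of actin over that at the 5' end, which follows how intact the RNA is, was 1.59 to 1.65 with PTH and 1.52 to 1.61 with PTHrP, against 1.45 to 1.51 in controls, higher in every treated array. The same ratio for Gapdh overlapped between each peptide and the controls. It was 0.9802 to 0.9885 with PTH and 0.9307 to 0.9753 with PTHrP, against 0.9495 to 0.9854 in controls. The part of RNA intactness in the results was not tested.

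**Figure D1:**
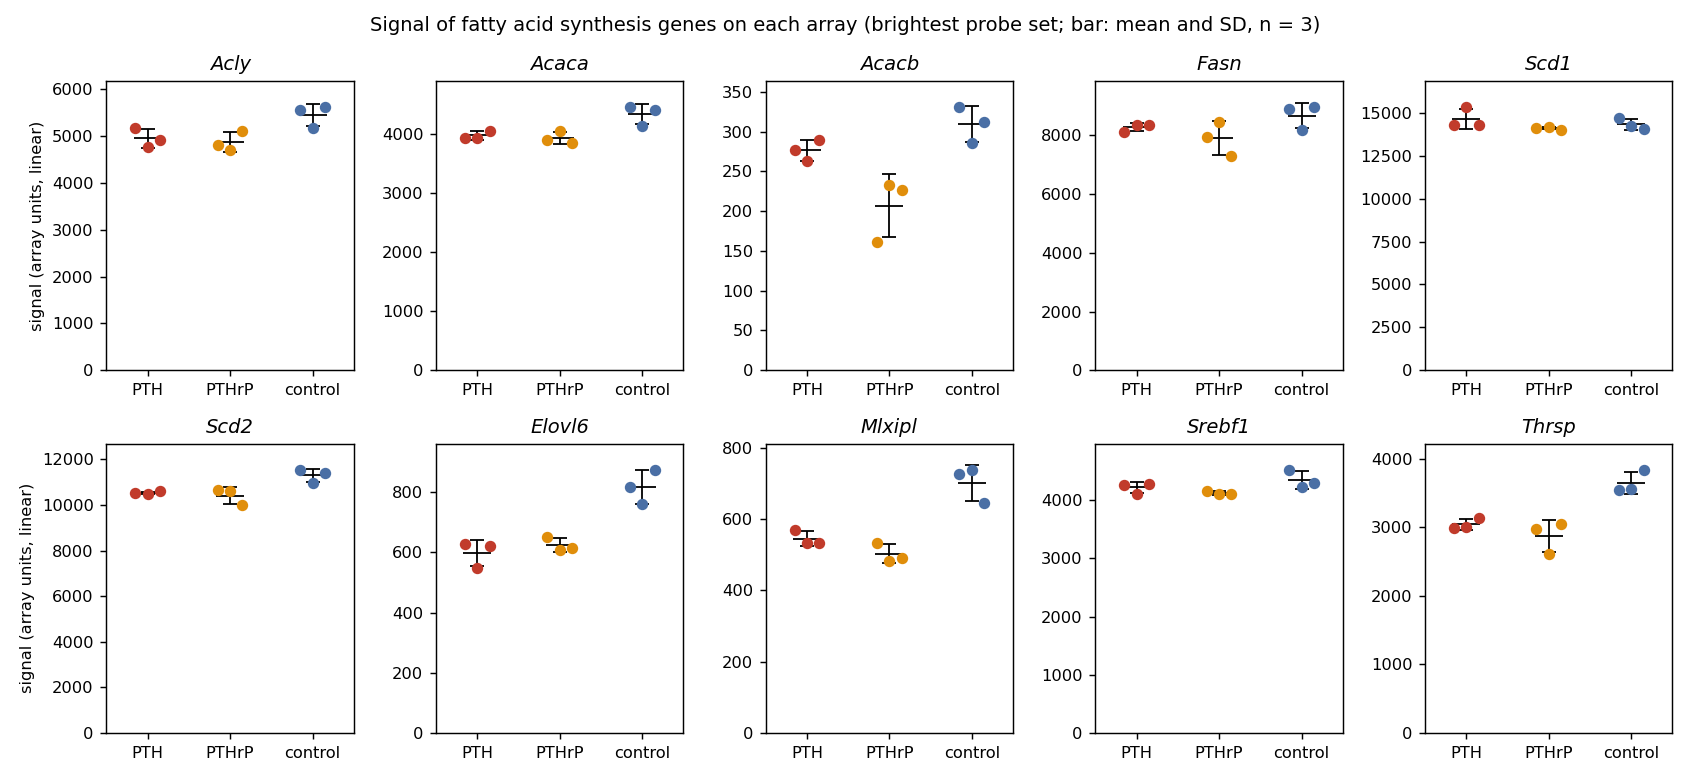
Signal (array units, linear scale from 0) of the brightest probe set of each of the 10 genes on the 9 arrays, with each group's mean and SD (n = 3). The Elovl6, Mlxipl and Thrsp points of both peptides lie below every control point, while the Fasn and Scd1 points of each peptide overlap those of the controls.

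The promoters of the 2 genes that fell with both peptides are shown beside those of Fasn and Srebf1, which did not pass, since all 4 are known targets or members of the SREBP and ChREBP circuit. RefSeq (GRCm38.p6) gave starts for 8 of the 10 genes, in 11 windows, and Scd1 and Scd2 have none here. Srebf1 is printed for its most downstream start only. Its windows further upstream are left out, and of the letters searched below they held only a CCAAT box. Each line holds the 250 bases before a start, 5′ to 3′ on the gene's strand, with matches to the searched letters in capitals.
Elovl6, chr3:129532136-129532385 (+ strand): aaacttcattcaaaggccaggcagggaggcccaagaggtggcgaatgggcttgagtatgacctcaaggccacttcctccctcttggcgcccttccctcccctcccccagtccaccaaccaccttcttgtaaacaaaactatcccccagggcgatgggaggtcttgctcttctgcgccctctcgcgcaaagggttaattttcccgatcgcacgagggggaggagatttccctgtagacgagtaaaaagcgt
Mlxipl, upstream start, chr5:135089640-135089889 (+ strand): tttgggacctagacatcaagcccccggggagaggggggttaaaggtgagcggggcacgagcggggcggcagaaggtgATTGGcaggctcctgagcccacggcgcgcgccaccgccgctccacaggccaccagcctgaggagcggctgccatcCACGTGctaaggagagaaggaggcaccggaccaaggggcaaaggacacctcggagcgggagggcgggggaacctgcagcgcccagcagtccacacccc
Mlxipl, downstream start, chr5:135106641-135106890 (+ strand): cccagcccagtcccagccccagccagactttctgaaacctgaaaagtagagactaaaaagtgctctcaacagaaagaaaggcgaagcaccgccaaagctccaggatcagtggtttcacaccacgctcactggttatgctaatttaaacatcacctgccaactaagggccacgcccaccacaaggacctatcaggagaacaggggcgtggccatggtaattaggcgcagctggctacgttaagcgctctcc
Fasn, chr11:120824548-120824797 (- strand): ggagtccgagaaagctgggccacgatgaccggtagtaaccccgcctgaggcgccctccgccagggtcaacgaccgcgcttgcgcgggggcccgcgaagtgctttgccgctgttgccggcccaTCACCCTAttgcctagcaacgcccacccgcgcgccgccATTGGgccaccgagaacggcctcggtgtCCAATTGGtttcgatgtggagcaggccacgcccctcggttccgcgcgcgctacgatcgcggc
Srebf1, most downstream start, chr11:60210472-60210721 (- strand): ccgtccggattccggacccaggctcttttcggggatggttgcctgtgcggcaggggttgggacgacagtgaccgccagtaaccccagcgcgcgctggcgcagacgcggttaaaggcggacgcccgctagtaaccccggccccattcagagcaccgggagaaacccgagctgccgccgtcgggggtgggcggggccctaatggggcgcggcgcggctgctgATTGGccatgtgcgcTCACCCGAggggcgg
Both strands were searched for the E-box CACGTG, which ChREBP binds as spaced pairs and SREBP as single copies, for TCACCCNA, which covers sterol response elements of the kind SREBP binds, for the CCAAT box of NF-Y, and for the cAMP response element TGACGTCA and its core TGACG, of which the second lies within the first. The letters were chosen with these sequences in view. The E-box was in 1 of the 11 windows, the upstream start of Mlxipl, and in 6.02% of all 32851 windows of this length. The sterol response letters were in 2, Fasn and the most downstream start of Srebf1, and in 3.24% of all. The CCAAT box was in 6, of Acacb, Fasn, Mlxipl, Srebf1 and Thrsp, and in 33.8% of all; in Fasn, 2 of its 3 matches overlap. The cAMP response element and its core were in 0 of the 11, and in 1.55% and 17.8% of all windows. The Elovl6 window held none of these letters. A match is a description of the sequence, and no match says only that the letters are not in this window.

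None of the 3 genes for the steps to palmitate passed. Acly codes for ATP-citrate lyase, which supplies cytosolic acetyl-CoA, and had 5179, 4761 and 4911 with PTH and 4809, 4706 and 5112 with PTHrP, against 5565, 5176 and 5615 in controls. The PTHrP arrays all lay below the controls, whereas the highest PTH array reached above the lowest control. Its log2 change was -0.14 (SE 0.06, adjusted p = 0.239) with PTH and -0.16 (SE 0.06, adjusted p = 0.181) with PTHrP, and neither passed. Acaca codes for the cytosolic acetyl-CoA carboxylase, which commits acetyl-CoA to fatty acid synthesis, and had 3934, 3927 and 4054 with PTH and 3903, 4040.2 and 3843 with PTHrP, against 4448, 4133 and 4408 in controls. All 6 treated arrays lay below all controls, by 8.27% and 9.26% of the control mean with PTH and PTHrP, but the log2 changes of -0.12 (SE 0.05, adjusted p = 0.208) and -0.14 (SE 0.05, adjusted p = 0.162) did not pass. Fasn, the fatty acid synthase that assembles palmitate, whose promoter window carried the sterol response letters, had 8128, 8371 and 8369 with PTH and 7955, 8450.2 and 7300.3 with PTHrP, against 8888, 8171 and 8958 in controls. Its groups overlapped, and the log2 change was -0.06 (SE 0.07, adjusted p = 0.689) with PTH and -0.14 (SE 0.07, adjusted p = 0.329) with PTHrP. The 95% interval was -0.21 to 0.09 with PTH and -0.28 to 0.01 with PTHrP. A fall in this signal of the size seen for Elovl6 lay outside both. Fasn has 1 probe set, and whether the scale is compressed at its high signal was not tested.

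Acacb codes for the other acetyl-CoA carboxylase, which sits on mitochondria, where its malonyl-CoA holds back the entry of fatty acids for oxidation. Its signal was 277, 263 and 289.8 with PTH and 161, 233 and 227 with PTHrP, against 330.4, 285 and 311 in controls. The 3 PTHrP arrays lay below all others, with replicate 1 the lowest, and the PTH arrays overlapped the controls. Acacb fell with PTHrP, by 33.1% of the control mean, a log2 change of -0.56 (SE 0.13, adjusted p = 0.0429), and had -0.15 (SE 0.13, adjusted p = 0.612) with PTH. The PTHrP call lay close to the threshold and was lost on leaving out control replicate 1 (adjusted p = 0.122), 2 (0.0792) or 3 (0.117), PTHrP replicate 3 (0.0578) or any 1 PTH array (0.0705 to 0.0737), but not without PTHrP replicate 2 (adjusted p = 0.0451) or PTHrP replicate 1 (log2 change -0.40, adjusted p = 0.0389). It was also lost with a pseudocount of 1 (0.0663), with only the PTHrP and control arrays in the fit (0.126) and with the mean of its probe sets (0.289).

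Of the 3 genes whose enzymes modify palmitate, 1 fell by its brightest probe set. Elovl6 codes for the elongase that lengthens palmitate to stearate, and had 627, 548 and 619.8 with PTH and 652, 609 and 615 with PTHrP, against 816, 760.0 and 874 in controls. All 6 treated arrays lay below all controls. Elovl6 averaged 598 ± 43.8 with PTH and 625 ± 23.1 with PTHrP, against 817 ± 56.9 in controls (SD, n = 3 each), and was 26.7% and 23.4% lower. The log2 change was -0.44 (SE 0.07, adjusted p = 0.0112) with PTH and -0.38 (SE 0.07, adjusted p = 0.0231) with PTHrP. With PTH the call held without any 1 array, whereas with PTHrP it did not hold without control replicate 1 (adjusted p = 0.0657), control replicate 3 (0.0709) or PTHrP replicate 1, 2 or 3 (0.0546, 0.0718 and 0.0671), and with only PTHrP and control arrays in the fit (0.0534). With the mean of its 3 probe sets, 1 of them near the dim level, neither call held (log2 change -0.35, adjusted p = 0.128 with PTH, and -0.20, 0.430 with PTHrP).

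Scd1 and Scd2 code for stearoyl-CoA desaturases, which place the double bond of oleate. Scd1 had 14319, 15335 and 14320.3 with PTH and 14146, 14162 and 14032 with PTHrP, against 14702, 14258 and 14092 in controls. Each peptide's arrays overlapped the controls, and the log2 change was 0.03 (SE 0.05, adjusted p = 0.808) with PTH and -0.02 (SE 0.05, adjusted p = 0.855) with PTHrP, with 95% intervals of -0.08 to 0.14 and -0.13 to 0.08. This probe set read 77.1% to 82.4% of the highest value on the same array, and whether the scale is compressed there was not tested. The other Scd1 probe set, at 5371 to 6443, had log2 changes of 0.03 and 0.007. Scd2 had 10507, 10504 and 10598 with PTH and 10652, 10595 and 10004 with PTHrP, against 11535, 10984 and 11403 in controls. All treated arrays lay below the controls, yet the log2 changes of -0.10 (SE 0.05, adjusted p = 0.280) with PTH and -0.12 (SE 0.05, adjusted p = 0.215) with PTHrP did not pass. Whether the probes of these close paralogs read each other's transcripts was not tested.

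Of the 3 regulators, Mlxipl fell with both peptides, Thrsp with PTHrP and Srebf1 with neither. Mlxipl codes for ChREBP, the factor that couples glucose metabolism to the enzyme genes and whose upstream start held the E-box, and had 569, 532 and 534 with PTH and 533, 483 and 492 with PTHrP, against 725, 737 and 644 in controls. The treated arrays all lay below the controls. Only 1 probe set reads Mlxipl, and which of its transcripts this covers was not tested. Mlxipl averaged 545 ± 20.7 with PTH and 503 ± 26.7 with PTHrP, against 702 ± 50.6 in controls (SD, n = 3 each), and fell with both peptides, with log2 changes of -0.35 (SE 0.07, adjusted p = 0.0198) and -0.47 (SE 0.07, adjusted p = 0.00632). The PTHrP call held without any 1 array, and the PTH call was lost without PTH replicate 2 (adjusted p = 0.0780), PTH replicate 3 (0.0855), control replicate 1 (0.0646) or control replicate 2 (0.0747).

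Srebf1 codes for SREBP-1, whose 1c form carries the insulin signal to the same enzyme genes. It had 4267, 4111 and 4275 with PTH and 4153, 4099 and 4109 with PTHrP, against 4517, 4219.9 and 4300.1 in controls. The PTHrP arrays lay below the controls and the PTH arrays overlapped them. The log2 change was -0.04 (SE 0.05, adjusted p = 0.705) with PTH and -0.08 (SE 0.05, adjusted p = 0.442) with PTHrP, with 95% intervals of -0.15 to 0.06 and -0.18 to 0.03. Whether its 1 probe set reads the 1a or the 1c transcript was not tested.

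Thrsp codes for Spot 14, a nuclear and cytosolic protein of lipogenic tissues that thyroid hormone and carbohydrate induce. Its signal was 2994, 3001 and 3138 with PTH and 2979.7, 2612 and 3045 with PTHrP, against 3547, 3567 and 3836 in controls. All treated arrays lay below all controls, by 16.6% and 21.1% of the control mean. Thrsp fell with PTHrP, with a log2 change of -0.34 (SE 0.07, adjusted p = 0.0256), and with PTH its value of -0.26 (SE 0.07, adjusted p = 0.0681) missed the threshold. The PTHrP call did not hold without control replicate 1 (adjusted p = 0.0562), control replicate 2 (0.0645), control replicate 3 (0.0818) or PTHrP replicate 1 (0.0612), with only PTHrP and control arrays (0.0930), and with the mean of its probe sets (0.557), 1 of which was below the dim level. The PTH value passed with the dimmest 40% of genes left out (0.0216), with a pseudocount of 64 (0.0269) and without PTHrP replicate 2 (0.0321).

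**Figure D2:**
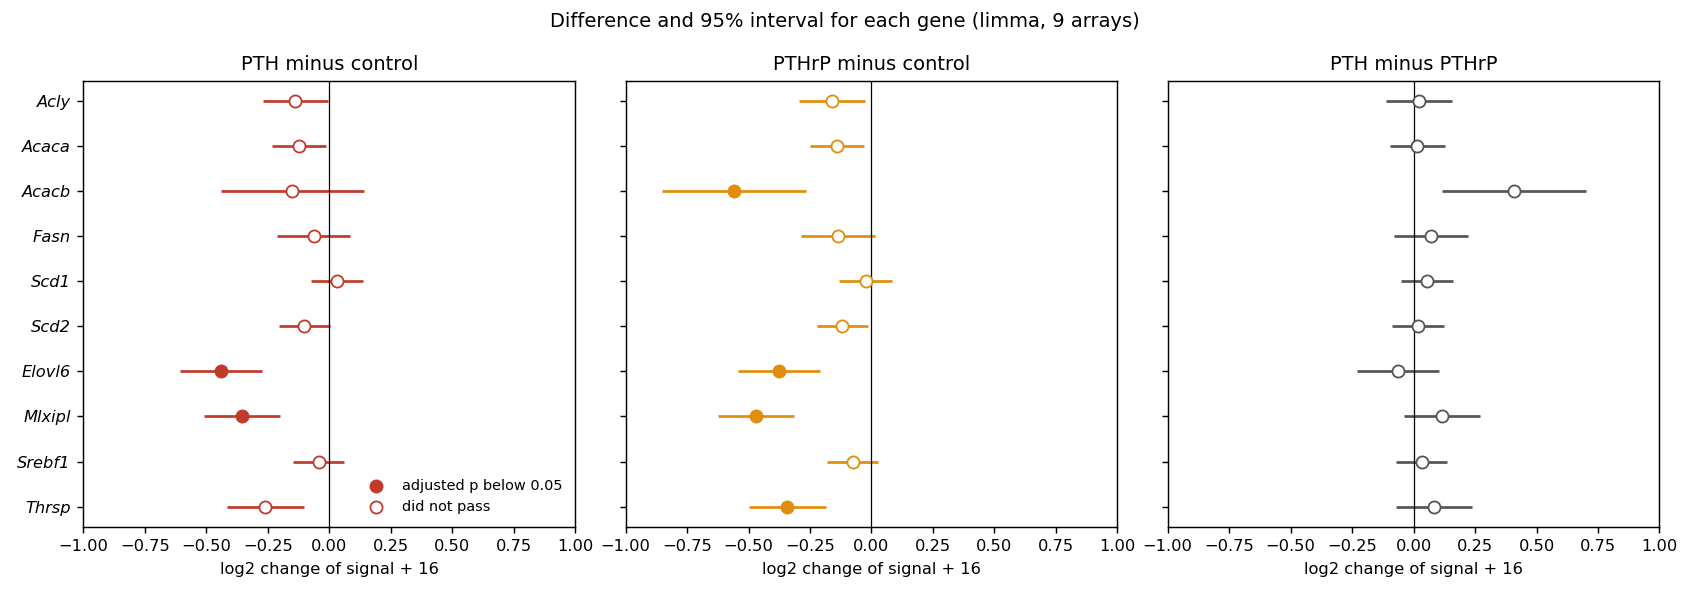
Log2 change of signal + 16 for the 10 genes with 95% intervals (limma, 9 arrays), for PTH minus control, PTHrP minus control and PTH minus PTHrP. Filled points passed an adjusted p of 0.05, which are Elovl6 and Mlxipl with both peptides and Acacb and Thrsp with PTHrP, and no point of PTH minus PTHrP passed.

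Some members that did not pass also lay below every control. In all, 5 of the 10 genes had all PTH arrays below all controls, and 8 had all PTHrP arrays below them. Of all genes, 13.2% were lower in all PTH arrays and 12.0% in all PTHrP arrays. The 5 genes below the controls with both peptides were Acaca, Scd2, Elovl6, Mlxipl and Thrsp (of all genes, 8.11% had all 6 treated arrays below all controls). No member had all arrays of either peptide above the controls, as 12.8% of all genes had with PTH and 10.4% with PTHrP. With a variance that follows the signal and is robust to outlying genes, 5 members fell with PTH and 7 with PTHrP, where 4.97% and 5.00% of all genes fell. Acaca and Scd2 then passed with both, Thrsp also with PTH, and Acly also with PTHrP. Control replicate 2 was the lowest of the 3 controls for 7 of the 10 genes (Acly, Acaca, Acacb, Fasn, Scd2, Elovl6 and Srebf1), and without it 1 member fell with PTH, Elovl6, and 2 with PTHrP, Elovl6 and Mlxipl.

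Both peptides together, 6 arrays against 3, gave the mean of the 2 changes. Elovl6 (log2 change -0.41, SE 0.06, adjusted p = 0.00615), Mlxipl (-0.41, SE 0.06, adjusted p = 0.00418) and Thrsp (-0.30, SE 0.06, adjusted p = 0.0174) fell, 0 members rose and 7 did not pass, while 4.57% of all genes fell and 3.84% rose. Among the genes of mean signal 100 or more, 7.36% fell and 6.11% rose. The others nearest to the threshold were Acacb (-0.36, SE 0.11, adjusted p = 0.0962), Acaca (-0.13, SE 0.04, adjusted p = 0.105) and Acly (-0.15, SE 0.05, adjusted p = 0.122). Thrsp was not called without control replicate 2 (adjusted p = 0.0547) or control replicate 3 (0.0736).

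The other probe sets of these genes give a second reading of the same RNA. Tested as single features among 34945 probe sets, 0 of the 24 rose and 4 fell with each peptide, where 2.13% of all fell and 2.04% rose with PTH, and 1.85% fell and 1.73% rose with PTHrP. Those that fell were 2 of Elovl6 and 1 of Mlxipl with both, 1 of Scd2 with PTH and 1 of Thrsp with PTHrP, and Acacb missed it with PTHrP (adjusted p = 0.0542). Elovl6 had a second probe set with 423, 438 and 429 with PTH and 392, 412 and 442 with PTHrP, against 566, 515 and 578 in controls. It lay below the controls in every treated array too, with log2 changes of -0.35 (SE 0.07, adjusted p = 0.0233) and -0.40 (SE 0.07, adjusted p = 0.0139), close in size to those of the brightest probe set. The third, with 10.2, 44.1 and 26.3 with PTH and 45.5, 61.7 and 18.7 with PTHrP, against 32.3, 33.5 and 32.9 in controls, scattered near the dim level and overlapped throughout.

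The second probe set of Thrsp had 1558, 1545 and 1671 with PTH and 1638, 1406 and 1505 with PTHrP, against 1915, 1815 and 2158 in controls. All treated arrays lay below the controls again, with log2 changes of -0.30 (SE 0.08, adjusted p = 0.102) and -0.37 (SE 0.08, adjusted p = 0.0532). Scd2 was uneven among its 3 probe sets. The second had 1592, 1610.1 and 1579 with PTH and 2039, 1839.5 and 1714 with PTHrP, against 2139.6, 1932 and 2545 in controls. Only with PTH did it lie below all controls, with a log2 change of -0.46 (SE 0.10, adjusted p = 0.0496), and it had -0.24 (SE 0.10, adjusted p = 0.318) with PTHrP. The third Scd2 probe set had log2 changes of -0.25 (SE 0.08, adjusted p = 0.161) and -0.31 (SE 0.08, adjusted p = 0.0877), both larger than the -0.10 and -0.12 of the brightest. With the mean of the 3, Scd2 passed for both peptides together (-0.25, adjusted p = 0.0464).

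Among the 6 probe sets of Acly, 4 were above the dim level, with log2 changes between -0.31 and -0.06 with PTH and between -0.26 and -0.08 with PTHrP. None of them passed, and the smallest adjusted p was 0.165. That was with PTH for the dimmest of the 4, which read 1023, 1001 and 991 with PTH and 1187, 995 and 970 with PTHrP, against 1238, 1112 and 1432 in controls. Its PTH arrays all lay below the controls. The log2 changes of -0.31 (SE 0.11) with PTH and -0.26 (SE 0.11, adjusted p = 0.276) with PTHrP were larger than the -0.14 and -0.16 of the brightest. The second probe sets of Acaca and Acacb, at 56.0 to 104 and 6.29 to 45.9, overlapped between groups and did not pass. The dim probe sets, the other 2 of Acly, 1 of Acacb and 1 of Thrsp, are too near background to be read, with log2 changes of either sign that did not pass.

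**Figure D3:**
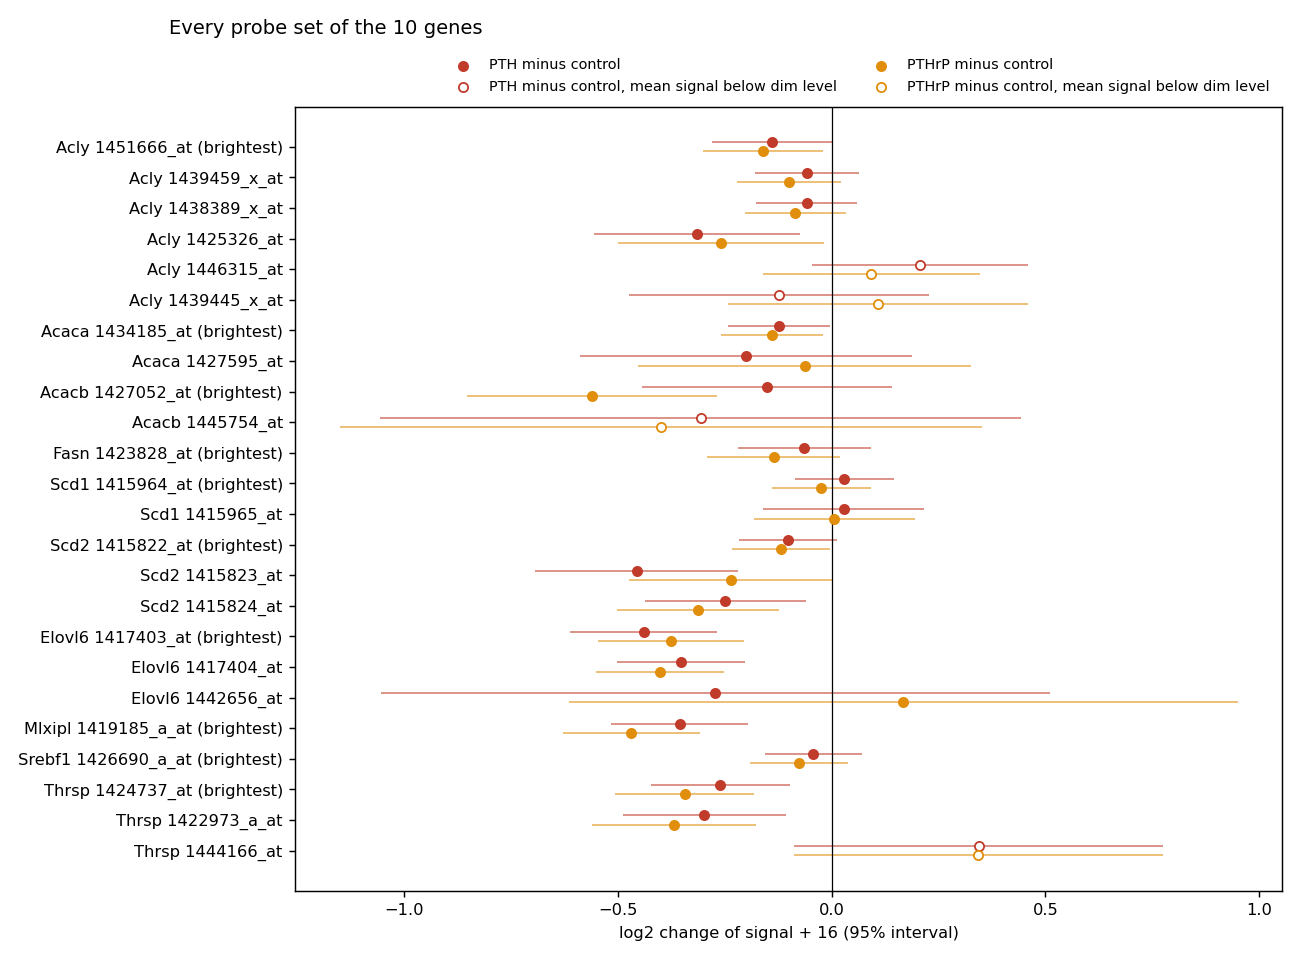
Log2 change of signal + 16 with its 95% interval for each of the 24 probe sets of the 10 genes, PTH minus control above PTHrP minus control, open points for probe sets with a mean signal below the dim level. The 2 brighter probe sets of Elovl6 and of Thrsp lie together left of 0, and the 3 of Scd2 are spread from -0.46 to -0.10 with PTH.

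The peptides, given at the same dose and time, were compared directly for the 10 genes, with p-values adjusted over all genes. No member passed, nor did any of the 18193 genes in limma (0% called, and 730 genes with an unadjusted p below 0.05). Acacb had the widest gap, 277, 263 and 289.8 with PTH, against 161, 233 and 227 with PTHrP. The 2 groups did not overlap, with a log2 difference of 0.41 for PTH minus PTHrP (95% interval 0.12 to 0.70, unadjusted p = 0.0119, adjusted p = 0.999, limma). Without PTHrP replicate 1 the difference was 0.25, and it was 0.38 to 0.50 on leaving out any other single array. Scd1 was the other member without overlap, at 0.05 (interval -0.05 to 0.16), and 5.23% of all genes were higher in all PTH arrays than in all PTHrP arrays, and 3.83% lower. For Mlxipl the difference was 0.11 (interval -0.04 to 0.27), for Elovl6 -0.06 (-0.23 to 0.10) and for Thrsp 0.08 (-0.07 to 0.24). The calls of Acacb and Thrsp with PTHrP and not with PTH are therefore not shown to differ between the peptides, and these intervals do not show that the peptides act alike either.

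Around the 10 genes, genes of fatty acid desaturation, elongation and activation changed in both directions. The suppliers and the other transcriptional regulators of the pathway gave no call with either peptide. Of 17 measured genes of fatty acid desaturation, elongation and activation (19 listed), PTH left 12 without a call, while 3 rose and 2 fell, with the same counts for PTHrP (median log2 change 0.04 and 0.008 with PTH and PTHrP). Acsl4, an acyl-CoA synthetase that prefers arachidonate, rose to 1655 ± 52.9 with PTH and 1667 ± 56.8 with PTHrP, against 919 ± 55.3 in controls (SD, n = 3 each). Its log2 change was 0.84 (SE 0.06, adjusted p = 0.000205) and 0.85 (SE 0.06, adjusted p = 0.000175), and Acsl3, another acyl-CoA synthetase, went the other way, with -0.37 (SE 0.05, adjusted p = 0.00425) and -0.33 (SE 0.05, adjusted p = 0.00736).

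Fads1, the delta-5 desaturase of polyunsaturated fatty acids, fell beside Elovl6, to 1647 ± 32.6 with PTH and 1657 ± 123 with PTHrP, against 2073 ± 34.5 in controls (SD, n = 3 each). Its log2 change was -0.33 (SE 0.06, adjusted p = 0.0151) and -0.32 (SE 0.06, adjusted p = 0.0173). Elovl3, an elongase of very long saturated chains known from brown fat, rose where Elovl6 fell, with 0.60 (SE 0.12, adjusted p = 0.0265) and 0.55 (SE 0.12, adjusted p = 0.0415). Hacd3, of the family of acyl-CoA dehydratases of the elongation cycle, rose by 0.37 (SE 0.05, adjusted p = 0.00538) and 0.30 (SE 0.05, adjusted p = 0.0147) on the log2 scale. Elovl3 read 97.1, 122 and 117 with PTH and 116, 104 and 100.2 with PTHrP, against 74.6, 53.7 and 77.1 in controls.

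Of 9 measured genes that supply acetyl-CoA and NADPH (10 listed), 0 passed with either peptide (median log2 change -0.06 and -0.08, 2 and 2 with an unadjusted p below 0.05 in limma). Of 18 measured genes of transcriptional control (19 listed), 0 passed with either peptide (median 0.02 and 0.04, 1 and 1 with an unadjusted p below 0.05). Of these 18 and the members Mlxipl and Srebf1, Mlxipl alone passed with PTH or with PTHrP. Among 10 genes that control acetyl-CoA carboxylase, 0 rose with either peptide, while 2 fell with PTH and 1 with PTHrP (median 0.03 and 0.02). Trib3, a pseudokinase that in mouse fat promotes the breakdown of the carboxylase, fell to 659 ± 16.1 with PTH and 720.1 ± 28.5 with PTHrP, against 1185 ± 84.8 in controls (SD, n = 3 each). Its log2 change was -0.83 (SE 0.06, adjusted p = 0.000264) and -0.70 (SE 0.06, adjusted p = 0.000639). Trib3 is also a target of the stress factor ATF4. Prkag2, a subunit of the AMP-activated kinase that phosphorylates the carboxylase, fell with PTH (-0.28, SE 0.06, adjusted p = 0.0407) and had -0.20 (SE 0.06, adjusted p = 0.131) with PTHrP. Of 7 measured other targets of SREBP or ChREBP (10 listed), 1 fell with each peptide, 6 did not pass and 0 rose (median 0.11 and 0.03). The gene that fell was Slc2a4, the insulin-responsive glucose transporter, with -0.33 (SE 0.07, adjusted p = 0.0231) and -0.38 (SE 0.07, adjusted p = 0.0144).

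With both peptides together, 1 of the 9 supply genes fell, Acss2 (log2 change -0.27, SE 0.06, adjusted p = 0.0303), which makes acetyl-CoA from acetate. In the list of desaturation, elongation and activation 4 passed upward and 4 fell: besides those named, Fads2 (-0.30, SE 0.08, adjusted p = 0.0456) and Fads3 (-0.20, SE 0.04, adjusted p = 0.0293) fell. The elongase gene Elovl7 (0.48, SE 0.11, adjusted p = 0.0384) passed upward, but all 9 of its arrays lay below the dim level, 20.8, 18.7 and 21.2 with PTH and 24.5, 15.8 and 14.9 with PTHrP, against 12.3, 10.8 and 5.26 in controls, too near background to be read. The choice to name these 4 was made with their values known.

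**Figure D4:**
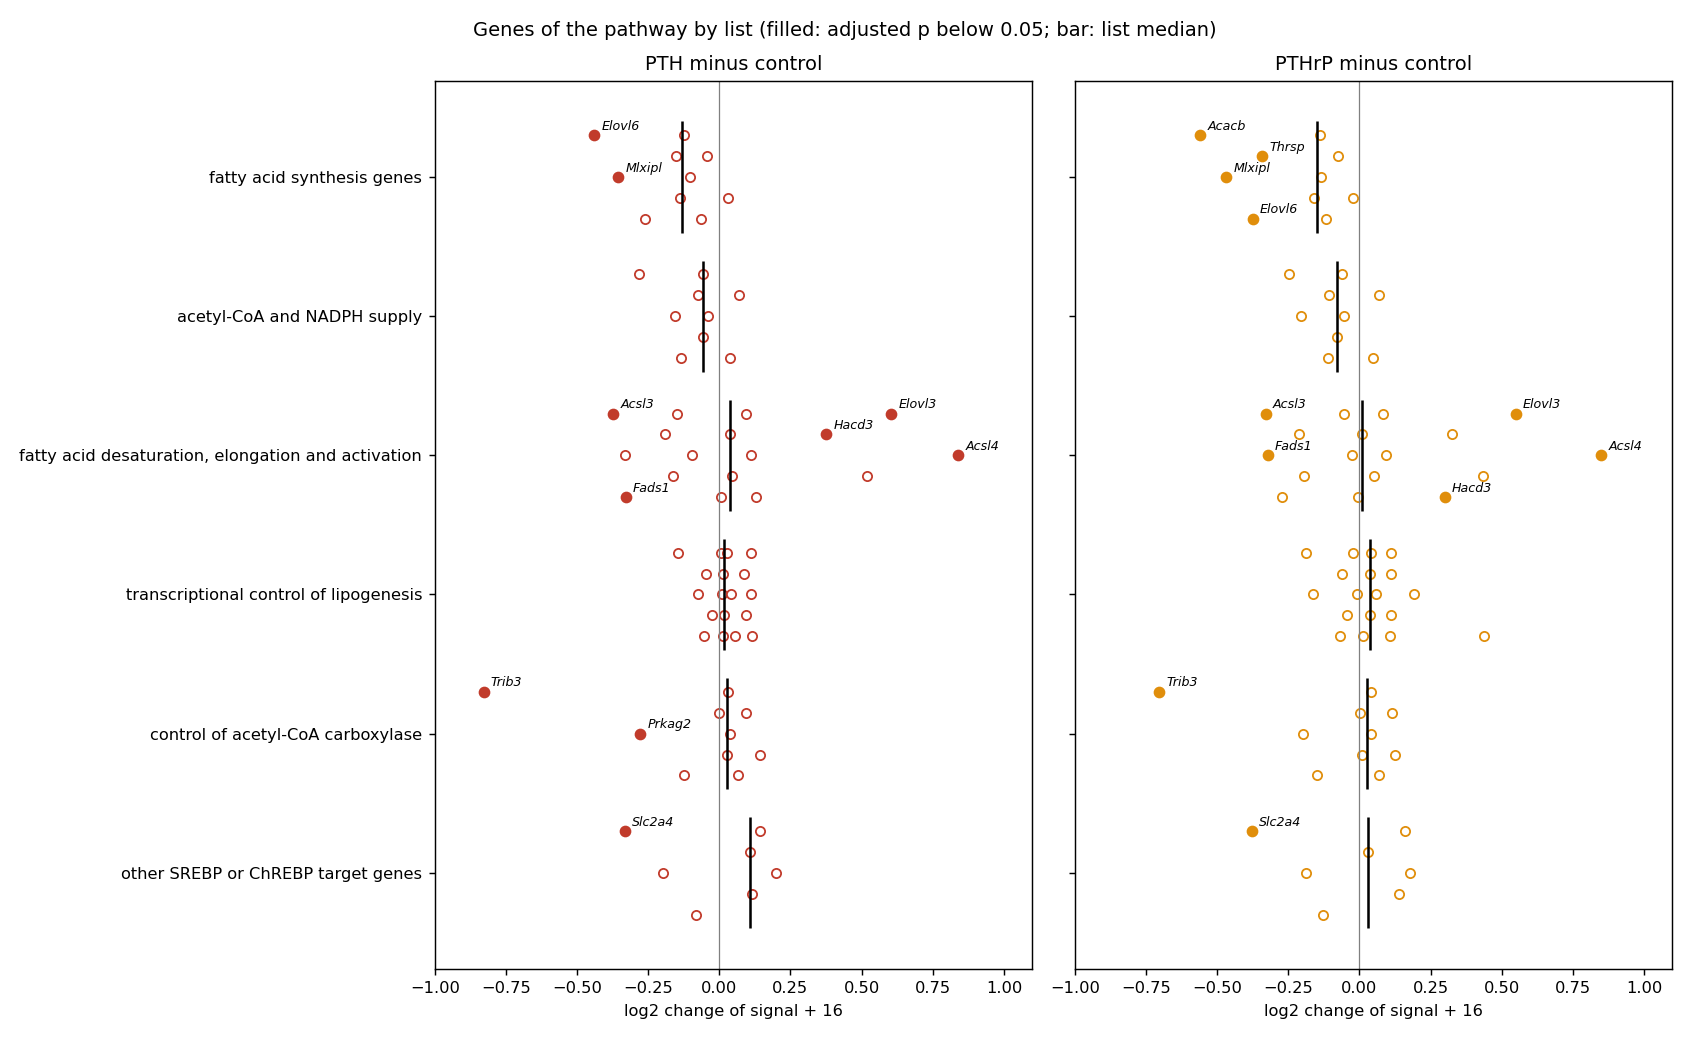
Log2 change of signal + 16 for each measured gene of the 10 and of the 5 other pathway lists, PTH minus control in the left panel and PTHrP minus control in the right. Points are genes (their height within a list has no meaning), filled where the adjusted p was below 0.05, and bars are list medians, -0.13 and -0.15 for the fatty acid synthesis genes.

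Which other genes followed the same course over the 9 arrays was read from Pearson's r of log2(signal + 16) with 9791 genes of mean signal 100 or more, as a description with no test. The arrays fall into 3 groups, so r takes in the treatment as well as the array. The 3 genes most like Elovl6 were Klhl5 (0.98), Tbc1d4 (0.98) and Nudt13 (0.98). All 3 fell with both peptides, Tbc1d4 (a regulator of glucose transporter traffic) with log2 changes of -0.94 and -0.84, Klhl5 with -0.29 and -0.26 and Nudt13 with -0.36 and -0.38. Those most like Mlxipl were Spop (0.99), Aldh1a3 (0.98) and Rab9 (0.98), of which Aldh1a3 (a retinaldehyde dehydrogenase) and Rab9 fell with both peptides and Spop did not pass. Those most like Fasn were Lims1 (0.96), Rtn4 (0.96) and Eif4ebp1 (0.96), and those most like Srebf1 were Dop1b (0.96), Klhl25 (0.96) and Ift74 (0.93), and none of these 6 passed with either peptide.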

How the data were processed

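Biotinylated cRNA was hybridised to Affymetrix arrays, per the labels' protocols. The values are intensities per probe set as deposited, with summary, background and scaling methods not given in the sources used here. A linear scale was taken from the range of the values (highest value per array 17113 to 18614), and the changes are fold changes only if that holds. Gene symbols came from the platform annotation: 34945 of 45101 probe sets had 1 symbol, 932 several, 9160 none and 64 were array controls; these last 3 kinds were not tested. The brightest probe set (highest mean over 9 arrays) stood for each of 18193 genes.

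The log2(intensity + 16) values were fitted with limma 3.58.1 in R 4.3.3, with a mean for each group over all 9 arrays, empirical Bayes variance, two-sided tests and Benjamini-Hochberg adjustment over all genes (threshold 0.05). A second fit took all single-symbol probe sets. The steps were tested on simulated data. Figures used matplotlib 3.10.9 in Python 3.11.15.

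The members and lists were chosen with earlier results of these data known. By the naming rule, all members are named, other pathway genes where they passed with either peptide, and the 3 genes most like Fasn, Srebf1, Elovl6 and Mlxipl. Of the listed genes, 11 are not analysed here. The alternatives are those of the closing section. No scan batch was fitted (dates not given in the sources used here).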

Additional observations from a re-analysis of the deposited data

How the results depend on the processing

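Elovl6 and Mlxipl stayed below 0 with both peptides under every alternative run, and no member rose under any. With PTH, where 2 members fell, the count was 1 when a gene's probe sets were averaged, 5 with a trended and robust variance, 0 at an adjusted p below 0.01 and 1 to 3 on leaving out 1 array. With PTHrP, where 4 fell, these counts were 1, 7, 1 and 1 to 3, and 1 with only the groups compared. With both peptides together, where 3 fell, the count was 6 with the dimmest 40% of genes left out, 7 with the trended variance, 5 with a pseudocount of 64 and 2 to 4 without 1 array. Over all genes, the 1109 calls with PTH became 1762 without dim genes, 1743 with the trended variance, 417 at 0.01 and 469 to 1050 without 1 array, and the 1013 with PTHrP became 1672, 1648, 398 and 513 to 770, and 455 with only the groups compared. The 1529 with both together became 2241 without dim genes, 2216 with the trended variance, 2027 with a pseudocount of 64, 659 at 0.01 and 861 to 1424 without 1 array. PTH against PTHrP gave 0 calls, 2 with a pseudocount of 1 and 0 to 1 without 1 array. The causes were not tested, beyond the fewer genes or arrays that some alternatives hold by construction.

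Same-numbered arrays of different groups had correlations of -0.24 to 0.29 between their deviations from the group means. Differently numbered arrays of different groups had -0.32 to 0.34. No pairing by number was seen, but 3 arrays per group are too few to exclude one. With the replicate block, 672 genes and 2 members were called with PTH, 575 and 3 with PTHrP (Acacb was lost, adjusted p = 0.0978) and 1033 and 3 with both together.

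Values near 0 that did not pass changed sign. Leaving out 1 array moved the Scd1 change over -0.0029 to 0.048 with PTH (below 0 without PTH replicate 2) and -0.013 to 0.021 with both peptides (below 0 without PTH replicate 2, control replicate 2 or control replicate 3). It moved the difference PTH minus PTHrP over -0.012 to 0.033 for Scd2 (below 0 without PTHrP replicate 3) and -0.011 to 0.056 for Acly (below 0 without PTH replicate 1 or PTHrP replicate 2). Quantile normalization gave -0.0067 for Scd1 with both peptides and -0.0018 for the Scd2 difference, and averaged probe sets gave differences of -0.047 for Scd2, -0.014 for Acly and -0.061 for Acaca.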
